A study of Mus musculus with 6 samples.

Results

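A set of 10 genes that shape the actin cytoskeleton was followed in 344SQ lung adenocarcinoma cells made to express the microRNA cluster miR-200b-200a-429. The genes are the cofilins Cfl1 and Cfl2, the WAVE proteins Wasf1, Wasf2 and Wasf3, the membrane linkers Msn, Ezr and Rdx, the formin Fhod1 and the protein kinase C substrate Marcks. Cfl2, Wasf3, Msn, Fhod1 and Marcks have been reported as targets of the miR-200 family, and the other 5 genes are paralogs of some of them. Every probe set annotated to one of these 10 symbols alone was taken, which gave 25 of the 45037 probe sets on the array and 10 of 18193 genes. The choice used gene names and no measured value, but it was made with earlier results of these data known.

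One group carried a lentivirus with the miR-200b-200a-429 cluster (called miR-200 below), and the other carried the control vector. Both are 344SQ cells, a line grown from a subcutaneous tumor of mouse 344, whose germline alleles were p53R172H∆g/+ and K-rasLA1/+. Both were kept as GFP-positive pools under puromycin, after transduction with virus packaged in TLA-HEK293T cells. Each group had 3 cultures, labelled A, B and C, with 1 array per culture. No label says that the cultures came from separate transductions, so p-values measure only the spread between these cultures, and a stable difference between the pools cannot be told apart from an effect of the microRNAs. Levels are log2 signals after quantile normalization, and a change is miR-200 minus control vector. A level of 5.28, the highest among the array's bacterial trp control probe sets, served as a gauge of background.

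Cells move by growing branched actin at the front, pulling on bundled filaments and recycling old ones. Cofilins sever and depolymerize old filaments, WAVE proteins switch on the Arp2/3 complex that starts new branches, and formins extend unbranched filaments. Moesin, ezrin and radixin tie filaments to membrane proteins, and MARCKS crosslinks actin at the membrane until protein kinase C releases it. MicroRNAs of the miR-200 family are known for repressing Zeb1 and Zeb2 and so holding epithelial cells in their epithelial state.

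The mature microRNAs of the expressed cluster are shown because the seed, bases 2 to 8, is the stretch by which a microRNA finds its targets. The capitals mark the seed, and the sequences are those of RefSeq on GRCm38.p6, where all 3 lie on the minus strand of chromosome 4.
mmu-miR-200b-3p: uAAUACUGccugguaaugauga
mmu-miR-429-3p: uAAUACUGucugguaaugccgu
mmu-miR-200a-3p: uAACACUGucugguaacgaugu
miR-200b-3p and miR-429-3p share the seed AAUACUG, whereas miR-200a-3p has AACACUG, so the cluster carries 2 seed groups. A fully matched site for the first reads CAGUAUU in the mRNA, and for the second CAGUGUU. The transcripts of the 10 genes were not searched for such sites here, and the levels of the microRNAs were not analysed.

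Of 10 epithelial and lung markers, 9 had means above the gauge in both groups, 1 passed as higher and 1 as lower in miR-200 cells. Cdh1, which encodes E-cadherin, averaged 13.32 ± 0.12 in miR-200 cells and 13.22 ± 0.13 in control cells (SD, n = 3 each), and the means of the keratin genes Krt8, Krt18, Krt19 and Krt7 lay between 12.99 and 13.91 in miR-200 cells and between 13.08 and 13.93 in control cells. The tight junction gene Cldn7 averaged 9.95 ± 0.51 in miR-200 cells and 5.71 ± 0.48 in control cells, where control B lay under the gauge (adjusted p = 0.0162). The surfactant gene Sftpb averaged 6.54 ± 0.03 in miR-200 cells and 12.58 ± 0.38 in control cells (adjusted p = 0.00249). Epcam was higher without overlap (change 0.42 ± 0.16, adjusted p = 0.344), and Krt19 was lower without overlap (change -0.39 ± 0.14, adjusted p = 0.315). The alveolar gene Sftpc lay under the background gauge on all 6 arrays. Of 15 measured markers of leukocytes, endothelium, fibroblasts and red cells, 5 lay under the gauge on every array (Pecam1, Kdr, Pdgfrb, Dcn and Hba-a1) and 8 above it on every array, Csf1r, Adgre1 and Col1a2 among them. Csf1r averaged 9.92 ± 0.02 in miR-200 cells and 9.47 ± 0.18 in control cells without overlap (adjusted p = 0.264). The macrophage marker Cd68 read 8.98, 5.73 and 5.97 in miR-200 cultures and 6.81, 8.87 and 6.46 in control cultures, high on miR-200 A and control B. The 15 markers' summed linear signal ranged from 2025 to 2610 in miR-200 cells and from 1750 to 2101 in control cells, and its part in the results was not tested. Across the whole array 335 probe sets passed, 0.744% of 45037 (limma, Benjamini-Hochberg adjusted p under 0.05). miR-200 A and control B differed from their own groups in a common way. Their deviations from the group means correlated at 0.71 over the brighter 60% of probe sets, so results are also given within that pair and within the other 4 arrays.

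None of the 25 probe sets passed the threshold in limma over all probe sets, against the 0.744% of the array just given. At an unadjusted p under 0.05 there were 7, 6 of Marcks and 1 of Wasf3, which is 28.0% against 14.1% of all probe sets. In 7 probe sets every miR-200 value lay under every control value (28.0%, against 9.76% of all probe sets), and in 3 every miR-200 value lay above (12.0%, against 11.6%). Since 6 of the 7 lower ones measure Marcks, they are not separate observations.

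**Figure D1:**
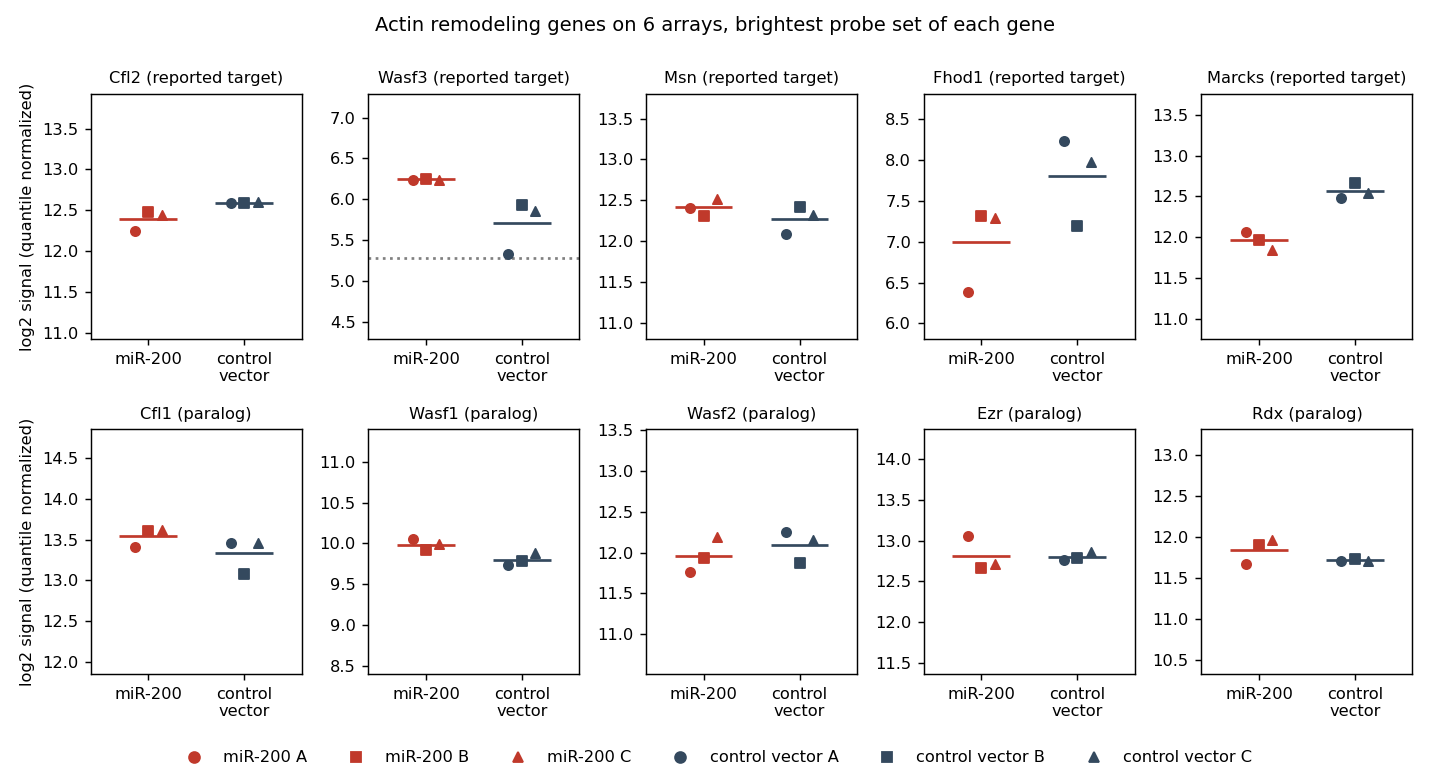
Log2 signal (vertical axis, 3 log2 units in every panel) of the brightest probe set of each of the 10 genes, with miR-200 cultures in red on the left and control vector cultures in dark blue on the right. Horizontal bars are group means, symbols give the culture letter, and the dotted line in the Wasf3 panel is the background gauge of 5.28. Marcks and Cfl2 are lower and Wasf3 and Wasf1 higher in miR-200 cells without overlap, and Fhod1 is low on miR-200 A and control B.

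Marcks was the member with the most uniform difference, lower in miR-200 cells by 1.52-fold to 1.90-fold in 6 of its 7 probe sets. The gene lies on chromosome 10 (GRCm38.p6, chr10:37133243-37138926). On probe set 1415971_at, the miR-200 cultures read 11.89, 11.82 and 11.77, and the control cultures 12.68, 12.58 and 12.66. All 3 miR-200 values lay below all 3 control values, with little spread inside either group. In such bulk cultures, a lower level in every cell and a loss from some cells of the pool cannot be told apart. The change was -0.81 ± 0.12 (log2 ± SE), with an adjusted p = 0.0620. Probe set 1415972_at gave 10.81, 10.71 and 10.65 in miR-200 cultures and 11.48, 11.56 and 11.63 in control cultures. Its change was much the same, -0.83 ± 0.12 (adjusted p = 0.0649). The brightest probe set, 1456028_x_at, read 12.07, 11.97 and 11.85 in miR-200 cultures and 12.48, 12.66 and 12.54 in control cultures. It had the smallest change of the 6, -0.60 ± 0.13 (adjusted p = 0.141), and its suffix marks a set whose probes may also match other transcripts.

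The remaining Marcks probe sets extended this picture, with 1 exception. Probe sets 1456700_x_at, 1415973_at and 1437034_x_at changed by -0.79, -0.90 and -0.92, with adjusted p from 0.139 to 0.190, and none had overlapping groups. The dim probe set 1430311_at read 7.115, 6.676 and 7.004 in miR-200 cultures and 6.967, 6.993 and 6.977 in control cultures. Its groups overlapped, and its change was -0.05 ± 0.16 (0.0062 on the values as deposited). The 95% interval of the change lay below 0 for all 6 lower probe sets, reaching from -1.10 to -0.52 for 1415971_at. Within the pair of arrays that stood apart, 1415971_at differed by -0.69 (miR-200 A minus control B), and by -0.87 among the other 4 arrays.

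Whether Marcks passes depends on the setting. On the values as deposited 1 Marcks probe set passed, while 327 did on the whole array (335 in the reported setting). After centring on array medians or without the dimmest 40% of probe sets 2 passed (371 and 923 on the array). With array weights or with a term for miR-200 A and control B 3 passed (1291 and 946 on the array). A variance trend and robust estimation together gave 4 (951 on the array). With 1 array left out, or both miR-200 A and control B, none passed, and with the replicate letter as a block the adjusted p of 1415971_at was 0.376. The 6 lower probe sets stayed below 0 in each of these settings, between -0.54 and -1.12.

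**Figure D2:**
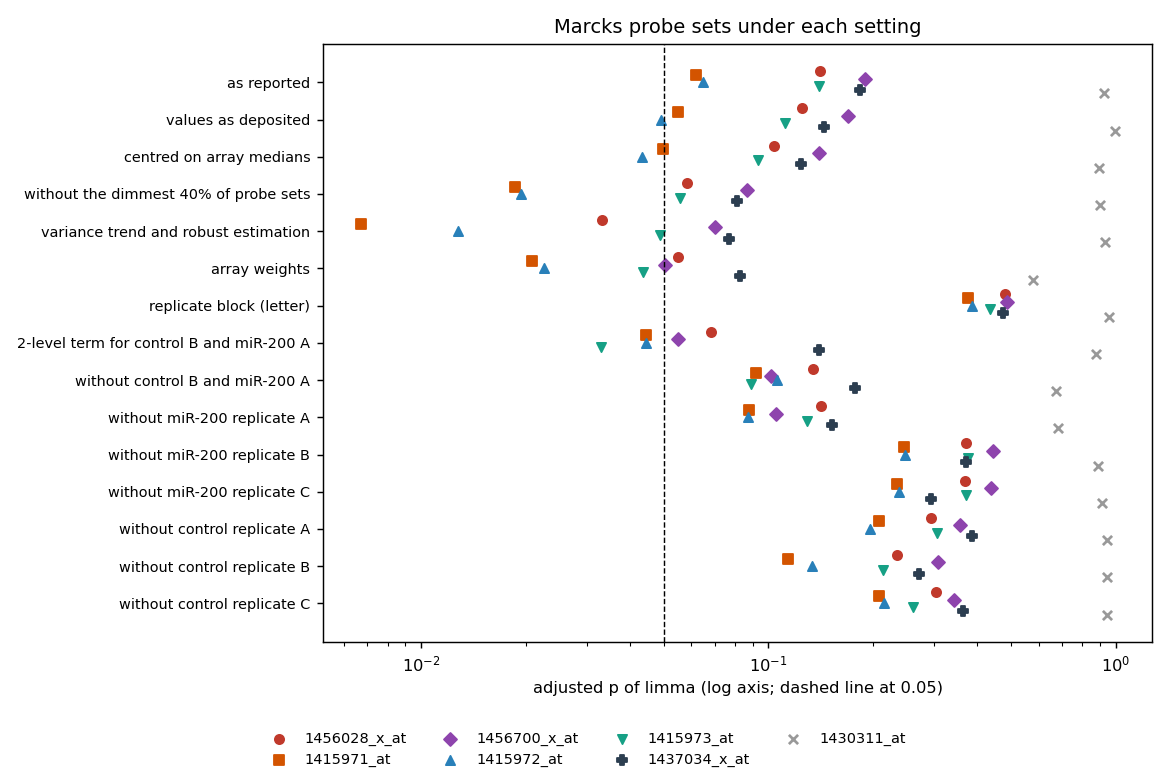
Adjusted p of limma (log axis, lower is to the left) for the 7 Marcks probe sets under the reported setting and each alternative, with the dashed line at 0.05. Between 1 and 4 probe sets lie left of the line in 6 alternatives, and none in the reported setting (lowest 0.0620), with the replicate block or with any array left out.

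Fhod1, a formin that bundles and anchors stress fibers and lies on chromosome 8 (GRCm38.p6, chr8:105329160-105348062), had a difference as large as that of Marcks but far more spread. Its 1 probe set read 6.39, 7.32 and 7.29 in miR-200 cultures and 8.23, 7.20 and 7.98 in control cultures. Control B lay below miR-200 B and C, so the groups overlapped. The change was -0.80 ± 0.39 (adjusted p = 0.425), with a 95% interval from -1.77 to 0.16. It was -0.50 without miR-200 A and -1.10 without control B. Both arrays that stood apart were low for Fhod1, miR-200 A at -0.92 relative to the other miR-200 cultures and control B at -0.91 relative to the other control cultures. Set against each other, the difference was -0.81 within that pair and -0.80 among the other 4 arrays. With a term for the pair the adjusted p of limma was 0.0555, and without both arrays 0.130. The pair was picked from these same data. On the whole array 946 probe sets passed with the term and 106 without both arrays, against 335 in the reported setting.

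Cfl2, the cofilin best known from muscle (GRCm38.p6, chr12:54858815-54862877), was slightly lower in miR-200 cells. Its brightest probe set, 1418067_at, read 12.25, 12.47 and 12.44 in miR-200 cultures and 12.59, 12.59 and 12.60 in control cultures. The groups did not overlap, but the change was only -0.20 ± 0.13 (1.15-fold lower, adjusted p = 0.535). The dimmer probe sets 1418066_at and 1431432_at changed by -0.38 ± 0.27 and -0.22 ± 0.61, both with overlapping groups. Without control B, 1418066_at differed by only -0.11. On 1431432_at, miR-200 A and control B were the low arrays, at -1.51 and -1.44 relative to the others of their group.

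Cfl1, the cofilin of non-muscle cells, did not share that direction. Its probe set 1455138_x_at read 13.41, 13.61 and 13.62 in miR-200 cultures and 13.46, 13.08 and 13.46 in control cultures. The change was 0.21 ± 0.16 (adjusted p = 0.633), and 1448346_at gave 0.49 ± 0.27 (adjusted p = 0.486), with overlap in both. Control B was the lowest array for both probe sets, and without it the changes were 0.079 and 0.30.

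Wasf3, which encodes WAVE3 has been tied to cancer cell invasion and lies on chromosome 5 (GRCm38.p6, chr5:146385006-146473615), read higher rather than lower in miR-200 cells. Probe set 1425061_at read 6.24, 6.25 and 6.24 in miR-200 cultures and 5.33, 5.93 and 5.85 in control cultures. The groups did not overlap, and the change was 0.54 ± 0.19 (1.45-fold, adjusted p = 0.312), with a 95% interval from 0.05 to 1.02. These levels lie close to the background gauge of 5.28, control A most of all, and without control A the change was 0.35. The second probe set, 1444243_at, lay under the gauge on all 6 arrays, with means of 4.11 ± 0.11 in miR-200 cells and 4.31 ± 0.60 in control cells.

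The other WAVE genes were well above background and differed little. Wasf1, the form best known from brain, read 10.06, 9.92 and 9.99 in miR-200 cultures and 9.74, 9.78 and 9.88 in control cultures. The groups just cleared each other, at a change of 0.19 ± 0.12 (adjusted p = 0.552). Wasf2, the widely expressed form, read 11.76, 11.93 and 12.19 in miR-200 cultures and 12.25, 11.87 and 12.16 in control cultures on 1454673_at. Its change was -0.13 ± 0.18 there and 0.15 ± 0.14 on 1438683_at, both with overlap.

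Msn, which encodes moesin and lies on the X chromosome (GRCm38.p6, chrX:96096045-96168553), was not lower in miR-200 cells on either probe set, although 1450379_at read -0.0042 after centring on array medians and -0.025 without miR-200 C. On 1421814_at it read 12.41, 12.31 and 12.51 in miR-200 cultures and 12.09, 12.42 and 12.32 in control cultures. The groups overlapped, the change was 0.14 ± 0.15 (adjusted p = 0.727), and the 95% interval ran from -0.23 to 0.50. A decrease beyond that lower bound, such as the one in most Marcks probe sets, lies outside the interval. Such an interval covers only the spread between these cultures. Probe set 1450379_at gave the same change of 0.14 ± 0.19, with an interval from -0.33 to 0.60.

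Ezr, the ezrin gene of microvilli and apical membranes, read 13.05, 12.67 and 12.72 in miR-200 cultures and 12.77, 12.79 and 12.86 in control cultures on its brightest probe set, 1450850_at. Only miR-200 A lay above the controls, and the change was 0.01 ± 0.15 (adjusted p = 0.993). Its sign turned negative on the values as deposited, after centring, with array weights and without miR-200 A and control B, and 1456725_x_at gave -0.20 ± 0.15. Rdx, the radixin gene, had changes of 0.13, 0.33 and 0.27 on its 3 probe sets. Only 1416179_a_at had groups that did not overlap, at 11.53, 11.54 and 11.47 in miR-200 cultures and 11.02, 11.31 and 11.23 in control cultures (adjusted p = 0.361).

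**Figure D3:**
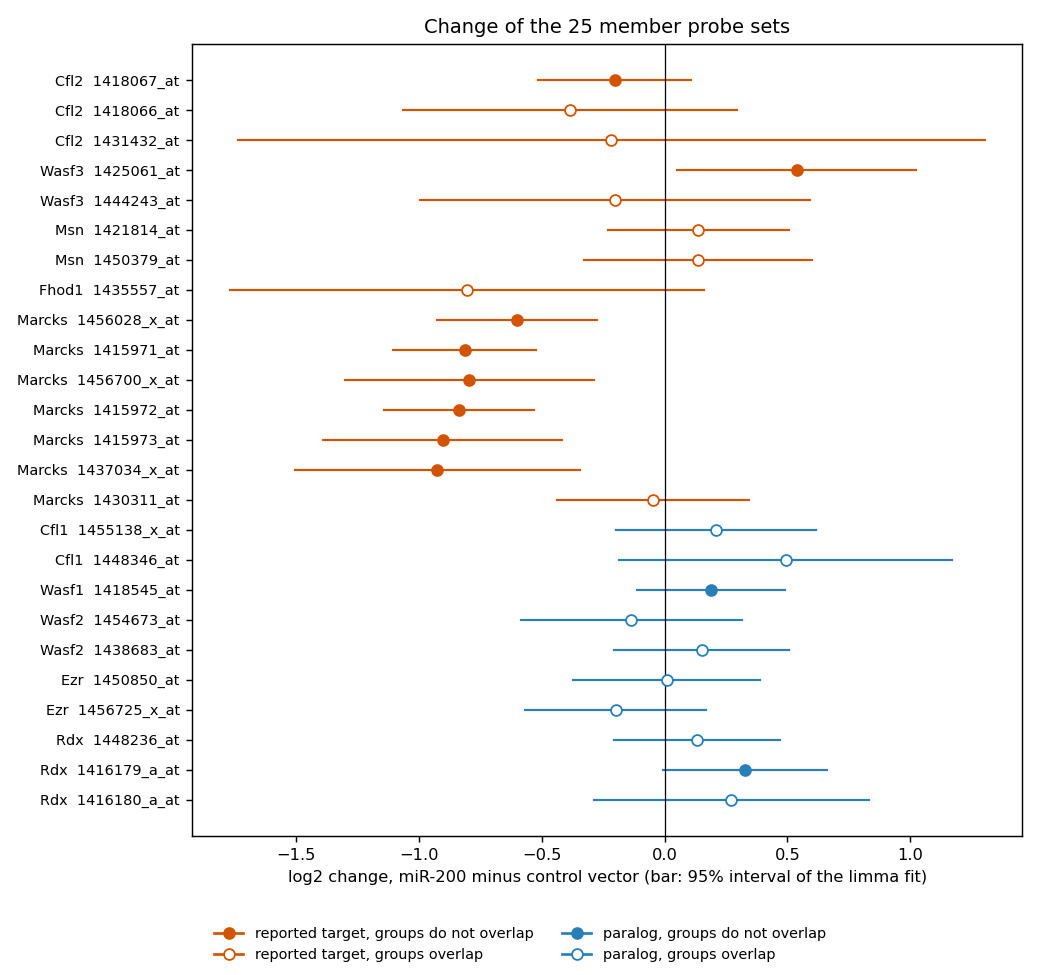
Log2 change, miR-200 minus control vector, of all 25 probe sets with the 95% interval of the limma fit; reported targets are orange and paralogs blue, and filled points mark groups that do not overlap. Of the 7 filled points left of 0, 6 are Marcks and 1 is Cfl2. None of the 10 paralog probe sets is such a point, against 9.76% of all probe sets.

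Reported targets and paralogs can be set side by side by their brightest probe sets. The 5 reported targets had changes from -0.80 to 0.54 with a median of -0.20, and 3 of them were below 0. For the 5 paralogs the range was -0.13 to 0.21 with a median of 0.13, and 1 was below 0. The median over all 18193 genes was 0.0014. By gene, 4 of the 10 had groups that did not overlap, which 23.5% of all genes share. Marcks and Cfl2 were lower (12.1% of all genes) and Wasf3 and Wasf1 higher (11.4% of all genes). The spread among the reported targets was thus wider than any shared direction, with Marcks and Fhod1 at one end and Wasf3 at the other.

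To test whether a reported target moved differently from its paralog, the log2 difference between both probe sets was taken within each array and compared by an exact two-sided permutation test over the 6 arrays. With 3 against 3 arrays the smallest p this test can give is 0.1, and 7 pairs were compared. Fhod3 and Marcksl1, which are not among the 10 genes, served as paralogs of Fhod1 and Marcks. No pair passed, and no pair could have. The level of such a difference depends on the probes, so only its shift between the groups is read.

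Cfl2 minus Cfl1 was lower in miR-200 cells. The within-array difference was -1.16 ± 0.02 in miR-200 cells and -0.74 ± 0.22 in control cells (SD, n = 3 each), so the shift was -0.41 (exact permutation p = 0.1, adjusted p = 0.233 over 7 pairs). The miR-200 cultures all lay below the control cultures, and the shift was -0.28 without miR-200 A and control B. Marcks minus Marcksl1 had the largest shift, -1.48, from 0.75 ± 0.27 in miR-200 cells against 2.23 ± 0.50 in control cells (SD, n = 3 each; exact p = 0.1, adjusted p = 0.233). Marcksl1, a smaller relative of MARCKS, contributed through its brightest probe set, which read 11.62, 11.01 and 11.02 in miR-200 cultures and 9.84, 10.99 and 10.17 in control cultures. The other 3 Marcksl1 probe sets changed by only 0.24 to 0.28 with overlapping groups, and with all probe sets averaged the shift was -1.12.

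The WAVE pairs went the other way. Wasf3 minus Wasf1 was -3.75 ± 0.07 in miR-200 cells and -4.09 ± 0.29 in control cells (SD, n = 3 each), a shift of 0.35 (exact p = 0.1, adjusted p = 0.233), or 0.19 without control A. With the mean of each gene's probe sets the shift was -0.02, since the dim Wasf3 set then counts as much as the brighter one. Against Wasf2 the shift was 0.67 (exact p = 0.2), or 0.40 without control A. Msn shifted by 0.13 against Ezr (exact p = 0.4; 0.031 without miR-200 C and 0.25 without miR-200 A) and by 0.0062 against Rdx (exact p = 1), where the spread within groups was larger than the shift. The adjusted p of the pairs of Wasf3 with Wasf2, Msn with Ezr, Msn with Rdx and Fhod1 with Fhod3 ranged from 0.35 to 1. Fhod1 shifted by -0.58 against Fhod3 (exact p = 0.3), whose 1 probe set is near background at 5.38 ± 0.37 in miR-200 cells and 5.60 ± 0.15 in control cells. That shift was -0.31 without control A and -0.97 without control B.

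**Figure D4:**
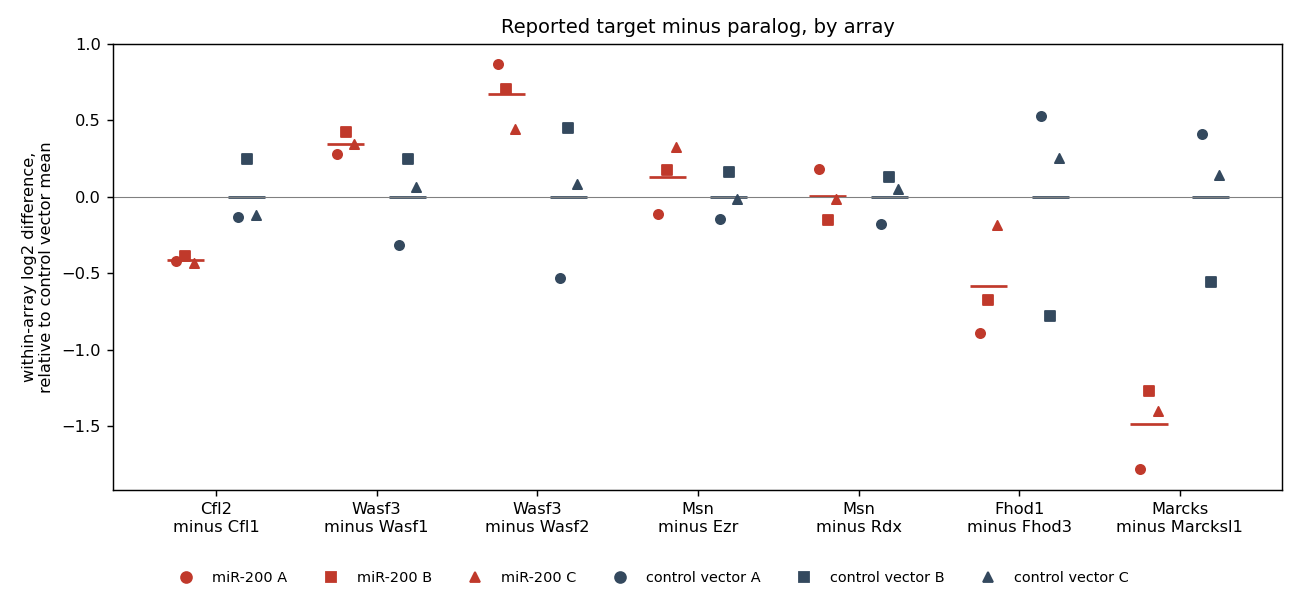
Within-array log2 difference of each reported target minus its paralog, drawn relative to the control vector mean of that pair, for miR-200 cultures (red, left) and control vector cultures (dark blue, right), with bars at group means. The miR-200 cultures lie below all controls for Cfl2 minus Cfl1 and for Marcks minus Marcksl1, above them for Wasf3 minus Wasf1, and overlap them in the other 4 pairs.

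The wider actin machinery was read from 6 lists with 126 symbols, of which 118 were measured. Represented by brightest probe sets, 0 of the 118 genes passed in limma (0.945% of all genes did), and at an unadjusted p under 0.05 there were 8 higher and 11 lower. Groups did not overlap in 16 higher and 21 lower genes, 31.4% of the lists against 23.5% of all genes, and the median change was -0.02. By list, this share ran from 27.3% to 34.8%. Of all genes, 11.4% were higher and 12.1% lower without overlap.

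Among 20 cofilin cycle genes, 1 was higher and 5 lower without overlap. The profilin gene Pfn2, which supplies actin monomers, averaged 9.30 ± 0.77 in miR-200 cells and 10.84 ± 0.76 in control cells, a change of -1.53 ± 0.54 (adjusted p = 0.303). There miR-200 A and control B stood 1.31 and 1.32 above the others of their group. Pfn2 1418209_a_at changed by -1.59 without overlap, and 1436993_x_at by -1.30 with overlap. Limk1, the kinase that inactivates cofilin, averaged 7.34 ± 0.20 in miR-200 cells and 8.27 ± 0.59 in control cells (change -0.93 ± 0.32, adjusted p = 0.298), though its 2 dimmer probe sets overlapped. Among 23 WAVE and Arp2/3 genes, 3 were higher and 5 lower without overlap. The WAVE complex adaptors Abi3 and Abi2 had changes of -1.13 ± 0.30 and -0.56 ± 0.19 (adjusted p = 0.207 and 0.289). Abi2 1433985_at was also lower without overlap, at -0.68 ± 0.22. The dim Abi2 1458053_at changed by 0.43 ± 0.41, and Abi3 1446191_at, under the gauge on every array, by 0.92 ± 0.38, both with overlap.

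Among 18 partners and regulators of the ERM proteins, 4 were higher and 2 lower without overlap. Slc9a3r1, the scaffold that binds ezrin under the apical membrane, averaged 10.77 ± 0.13 in miR-200 cells and 11.56 ± 0.13 in control cells. Its change was -0.79 ± 0.14 (adjusted p = 0.0977), and all 3 of its probe sets had lower, non-overlapping miR-200 values. Slk, a kinase that phosphorylates ERM proteins, had a change of 0.36 ± 0.17 (adjusted p = 0.428). Slk 1449336_a_at and 1425977_a_at were also higher without overlap, at 0.94 ± 0.33 and 0.61 ± 0.15. Slk 1419092_a_at and 1443815_x_at changed by 0.12 ± 0.22 and -0.31 ± 0.51 with overlap. Of 13 formins and partners, 2 were higher and 2 lower without overlap. Daam1 and Fmnl2, both formins, had changes of -0.70 ± 0.20 and 0.41 ± 0.23 (adjusted p = 0.228 and 0.489).

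Of 11 genes around MARCKS and protein kinase C, 1 was higher and 2 lower without overlap. The higher one was Marcksl1 (0.88 ± 0.35, adjusted p = 0.353), and the kinase gene Prkce had a change of -0.78 ± 0.21 (adjusted p = 0.197) with its other probe sets overlapping. Among 33 genes of filaments and bundling proteins, 5 were higher and 5 lower without overlap. These include Acta2 (higher) and Actg2 (lower), which lay under the gauge on all 6 arrays. Enah, which encodes the filament elongator Mena, averaged 11.60 ± 0.15 in miR-200 cells and 10.06 ± 0.49 in control cells, a change of 1.54 ± 0.27 (adjusted p = 0.0960). One of its dimmer probe sets, 1421624_a_at, passed at 1.42 ± 0.17 (adjusted p = 0.0414). The bundling protein gene Lcp1 read 8.62, 5.99 and 5.77 in miR-200 cultures and 9.15, 9.92 and 8.92 in control cultures. miR-200 A stood far above the other miR-200 cultures there, and the change was -2.54 ± 0.82 (adjusted p = 0.271).

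For scale, the transcription factor genes Zeb1 and Zeb2, long known as miR-200 targets, had changes of -1.08 ± 0.34 and -0.85 ± 0.22 (adjusted p = 0.255 and 0.195). Other probe sets of these genes were mixed. For Zeb1, 1443005_at changed by 0.07 ± 0.16 with overlap. For Zeb2, 1422748_at and 1456389_at were lower without overlap, at -0.68 ± 0.21 and -1.04 ± 0.34. In contrast, Zeb2 1458941_at was higher without overlap at 0.31 ± 0.14, and 1454200_at changed by 0.18 ± 0.29 with overlap. The lower Marcks probe sets had changes from -0.92 to -0.60, with standard errors from 0.12 to 0.23.

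Over the 6 arrays, the genes whose pattern was most like that of a reported target were found among 12420 genes above the gauge on every array. They were Card19 and Glul for Marcks, Fahd1 and Adcy6 for Fhod1, Scel and Id1 for Cfl2, Tmem132a and Stx16 for Wasf3, and Ing5 and Stum for Msn. Pearson's r lay between 0.981 and 0.997, which with 6 arrays that share 2 groups and a pair standing apart is a description only.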

How the data were processed

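Biotinylated cRNA was hybridized to Affymetrix mouse arrays, per the labels. The labels name the design 430A 2.0, but the table holds more probe sets and was used with GEO's annotation of the whole-genome design. The authors deposited log2 signals, 1 per probe set and array; their summarisation and normalization are not given in the sources used here, and no detection calls were used. Deposited array medians spanned 0.0924 and interquartile ranges 0.174, so arrays were quantile normalized and 64 control probe sets left out. Of 45037 probe sets, 34945 have 1 symbol, 932 several and 9160 none listed; 34741 were matched to RefSeq (GRCm38.p6). The brightest probe set over the 6 arrays stands for its gene. The comparison was fitted with limma 3.58.1 in R 4.3.3 (two-sided, no block), with Benjamini-Hochberg adjustment over all probe sets and a threshold of 0.05. The fit was tested on simulated data.

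Members, lists and tests were chosen with earlier results of these data known. Named genes are all members, the 2 list genes with the largest non-overlapping change per list, and any past the threshold, with Zeb1, Zeb2, Cdh1, Marcksl1 and Fhod3 whatever their values. Other markers of cell type were chosen after their values were seen. The Enah probe set 1421624_a_at was chosen after its value was seen. So were the list genes outside this rule: Acta2, Actg2, Arpc2, Capzb, Abi1, Cttn, Ppm1f and Fscn1. Alternatives were normalization, a filter on dim probe sets, variance models, array weights, a block, a term for the arrays that stood apart, and arrays left out. Precision is limited by 3 arrays per group.

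Arrays with the same letter deviated from their group means with correlations of -0.58 (A), -0.67 (B) and 0.43 (C), which does not show pairing.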

Additional observations from a re-analysis of the deposited data

How the results depend on the processing

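The count of 0 of 25 member probe sets became 1 as deposited, 2 after centring, 2 without the dimmest 40%, 4 with the variance trend and robust estimation together, 3 with array weights and 3 with the 2-level term, all lower and all Marcks; it was 0 without miR-200 A and control B, and ranged from 0 to 0 with 1 array left out. The array's 335 became 923 without the dimmest 40%, 951 with trend and robust estimation, 1291 with weights, 946 with the term, 106 without both arrays, and 32 (without control A) to 330 (without miR-200 A) with 1 array left out. A replicate block by letter left 0 probe sets on the array and 0 of the members. Pairing of the letters was not shown, and the cause of this loss was not tested.

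Signs turned for small changes without a call. Ezr 1450850_at was -0.021 as deposited, -0.091 centred, -0.095 with weights, -0.12 without both arrays and -0.11 to 0.080 with 1 array left out. Msn 1450379_at was -0.0042 centred and -0.025 to 0.24 with 1 array left out. Marcks 1430311_at was 0.0062 as deposited and -0.14 to 0.081 with 1 array left out, and Cfl2 1431432_at ranged from -0.69 to 0.29. Msn minus Rdx was -0.0185 without both arrays, -0.11 with all probe sets averaged and -0.081 to 0.079 with 1 array left out, and Wasf3 minus Wasf1 was -0.021 with all probe sets averaged. The other 5 pairs kept their sign. Apart from the averaging of probe sets, the cause was not tested.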

Other observations

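Some core genes of the actin machinery differed little between the groups. They were chosen after their values were seen, so they do not stand for the core as a whole. The actin genes Actb and Actg1 averaged 13.77 ± 0.08 and 13.45 ± 0.12 in miR-200 cells, and 13.79 ± 0.02 and 13.48 ± 0.01 in control cells (SD, n = 3 each). The GTPase genes Rac1, Cdc42 and Rhoa had changes of 0.03, 0.01 and 0.06, and the Arp2/3 subunit Actr3 one of 0.0035. The changes of these genes had adjusted p from 0.856 to 0.997 in limma. Other genes of the same lists had groups that did not overlap. Among them were Arpc2 and Capzb, lower at -0.18 and -0.26, and Abi1 and Cttn, higher at 0.49 and 0.38 (limma adjusted p from 0.269 to 0.533). Ppm1f, a phosphatase gene reported with Fhod1 as a miR-200 target, averaged 7.94 ± 0.15 in miR-200 cells and 8.31 ± 0.24 in control cells, with groups that did not overlap and a change of -0.37 ± 0.18 (adjusted p = 0.422). Fscn1, which bundles filaments in filopodia, averaged 13.50 ± 0.04 in miR-200 cells and 13.20 ± 0.04 in control cells, a change of 0.29 ± 0.11 without overlap (adjusted p = 0.340).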
